A study of Mus musculus with 2 samples.

Results

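The genes described here encode subunits of the mitochondrial respiratory chain and of ATP synthase. A list of 52 nuclear-encoded genes was followed, 26 of complex I, 4 of complex II, 7 of complex III, the gene of cytochrome c, 9 of complex IV and 5 of complex V. Each gene was read by its brightest probe set, the one with the highest mean signal over both arrays among probe sets that the platform annotation assigns to that gene alone. By this rule 50 of the 52 genes were measured, out of 11693 genes compared on the arrays. Ndufs6 was left out because its probe set also names another gene, and Cox7b is not under that name in the annotation used here. The 50 genes passed the filter on dim probe sets, and 0 of them was at the floor that stands in for signals too low to measure.

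The tissue was precancerous liver of mice kept on regular chow. Both samples of the comparison came from mice with a Pik3ca transgene specific to hepatocytes, which encodes a catalytic subunit of phosphoinositide 3-kinase. They differed in Kdm3a, the gene of a demethylase of histone H3 lysine 9, which was intact on 1 array (Pik3caTg;Kdm3aWT) and knocked out on the other (Pik3caTg;Kdm3aKO). The sources used here do not name the promoter that drives the transgene, the age of the mice or the number of animals behind an array, and no liver without the transgene is part of the comparison. With 1 array per genotype there was no replicate, no test and no error between animals. Every value describes these arrays, and their number limits the precision.

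The respiratory chain sits in the inner mitochondrial membrane. Complex I takes electrons from NADH and complex II takes them from succinate, both pass them through ubiquinone to complex III, cytochrome c carries them on to complex IV, and complex IV hands them to oxygen. Complexes I, III and IV pump protons, and complex V, the ATP synthase, uses their return to make ATP. Hepatocytes are rich in mitochondria and rely on this system for urea synthesis, glucose production and fat oxidation.

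The known regulators of these genes bind short motifs near the start sites, among them NRF1, ETS factors such as GABP, YY1 and the estrogen-related receptors. Below are the 250 bases before the start site of 4 members, read 5′ to 3′ from RefSeq (GRCm38.p6). They were chosen as the gene with the highest ratio, the gene with the next highest, cytochrome c, and the lowest ratio among members with a promoter in the table. Capitals mark matches to the NRF1 motif (its full form or the shorter form GCGCATGC, either strand), the ETS motif CCGGAAG or the YY1 motif AAGATGGCG; the Ndufb10 stretch has none of these.
Ndufb10 promoter, chr17:24724424-24724673, minus strand: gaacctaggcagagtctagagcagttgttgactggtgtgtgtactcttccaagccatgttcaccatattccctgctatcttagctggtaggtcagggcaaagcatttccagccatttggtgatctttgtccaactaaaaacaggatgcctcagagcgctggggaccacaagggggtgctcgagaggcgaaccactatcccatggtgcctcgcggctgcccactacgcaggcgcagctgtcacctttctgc
Sdhb promoter, chr4:140961021-140961270, plus strand: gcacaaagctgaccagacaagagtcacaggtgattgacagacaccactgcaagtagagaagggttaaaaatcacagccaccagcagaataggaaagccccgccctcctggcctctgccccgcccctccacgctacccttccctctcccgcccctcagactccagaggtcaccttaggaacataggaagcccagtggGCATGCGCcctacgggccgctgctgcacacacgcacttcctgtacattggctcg
Cycs promoter, chr6:50566570-50566819, minus strand: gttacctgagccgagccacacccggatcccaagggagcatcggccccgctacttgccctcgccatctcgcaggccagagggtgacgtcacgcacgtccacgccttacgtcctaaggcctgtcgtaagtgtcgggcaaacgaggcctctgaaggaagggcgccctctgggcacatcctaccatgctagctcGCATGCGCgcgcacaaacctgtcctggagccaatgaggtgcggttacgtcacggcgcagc
Ndufa8 promoter, chr2:36049339-36049588, minus strand: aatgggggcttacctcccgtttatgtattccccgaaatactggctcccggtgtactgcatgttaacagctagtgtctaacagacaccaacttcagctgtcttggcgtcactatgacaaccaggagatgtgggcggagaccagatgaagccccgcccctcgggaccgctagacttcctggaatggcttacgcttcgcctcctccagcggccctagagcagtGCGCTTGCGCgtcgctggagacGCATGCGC

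In the Sdhb, Cycs and Ndufa8 stretches the shorter NRF1 form was found on the opposite strand, and Ndufa8 also held the full form. Promoters of 41 of the 52 listed genes were in the RefSeq table, 45 promoters in all because some genes have several. Over windows of 300 bases (250 before and 50 after the start), the full NRF1 form was found in 11 of the 45 member promoters (24.4%), against 4.60% of 32851 promoters of all genes and 6.38% of those of protein-coding genes. The shorter form, which overlaps the full form where both match, was found in 13.3% of member promoters, 2.71% of all and 3.52% of protein-coding ones. The ETS motif was found in 17.8% of member promoters, 8.86% of all and 11.6% of protein-coding ones. For the YY1 motif these shares were 11.1%, 1.40% and 1.83%. The estrogen-related receptor motif AAGGTCA (4.44% and 4.72%) and the CCAAT box (37.8% and 37.4%) were found in nearly the same share of member promoters and of all promoters. Member promoters had a median GC content of 58.3%, against 52.7% for all promoters and 56.3% for those of protein-coding genes. These are matches of letters in a window, not sites shown to be bound.

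Ratios of members with and without a motif overlapped. The 9 measured members with the full NRF1 form had a median log2 ratio of 0.44 between knockout and wild type, and the 30 measured members with a promoter but without the form had 0.49. For the shorter form the medians were 0.39 (6 genes) and 0.51 (33), for the ETS motif 0.56 (8) and 0.45 (31), and for the YY1 motif 0.50 (4) and 0.45 (35). Single genes went both ways: Ndufa8, with both forms, had a ratio near 0, while Ndufb10, with neither, had the highest.

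On the whole, transcripts of the respiratory chain and ATP synthase had modestly higher signals on the Kdm3a knockout array. Of the 50 genes, 49 had a log2 ratio of knockout over wild type above 0, a direction found for 47.8% of all genes compared and for 61.1% of the 2339 genes of highest signal (20% of all). All 50 genes lay among these 2339. Their median log2 ratio was 0.48, or 1.39-fold, with quartiles of 0.35 and 0.58. The median was -0.02 for all genes and 0.12 for the genes of highest signal. The dimmest member had a mean signal of 3734. Of the 1434 genes at least that bright, 66.2% were above 0, with a median of 0.18, and 17.6% were at least 1.5-fold higher. At least 1.5-fold higher signal was found for 12 of the 50 genes (24%), against 11.1% of all genes and 13.8% of the genes of highest signal. That count depended on scaling. It became 3 after quantile normalization and 2 after loess, against 11.8% and 11.4% of all genes. With hybridisation controls it was 2 and with poly-A controls 34, against 7.60% and 18.1%. Under quantile, loess and hybridisation-control scaling the share was thus below that of all genes. In the other direction 0 of 50 was at least 1.5-fold lower, against 17.4% of all genes and 8.94% of those of highest signal. The 2-fold mark was reached by 0 of the 50 genes in either direction, with a background of 3.83% higher and 8.96% lower among all genes and 4.49% higher and 4.4% lower among those of highest signal.

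**Figure D1:**
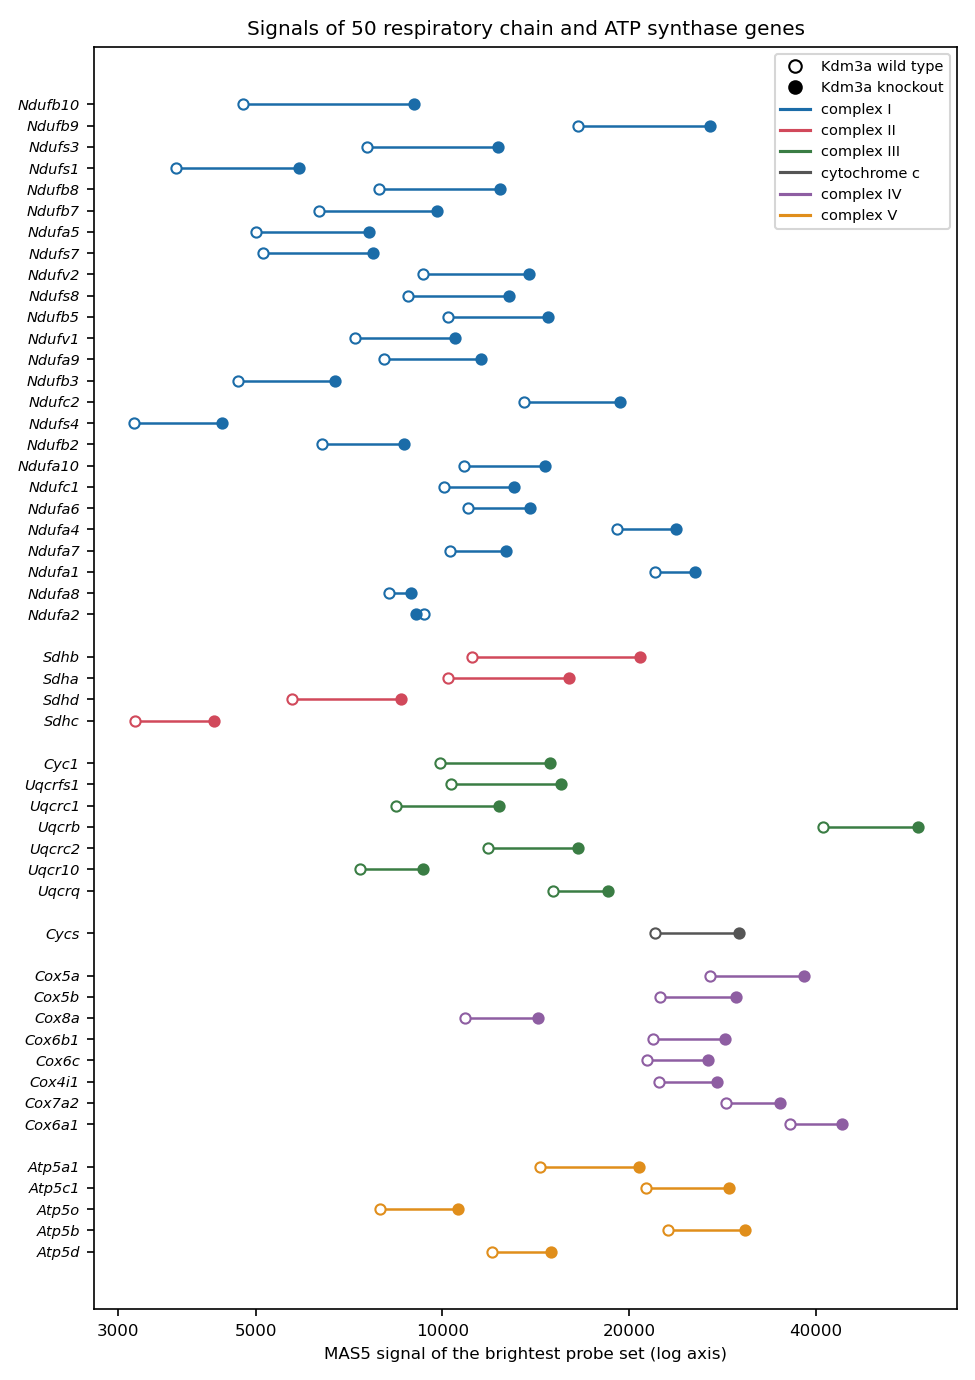
MAS5 signal (log axis) of the brightest probe set of 50 genes, open circles for the Kdm3a wild-type array and filled circles for the knockout array, coloured by complex. The filled circle lies to the right for 49 genes; Ndufa2, with 9344 and 9080, is the gene for which it lies to the left.

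The members stood close together. Within 0.25 of their median log2 ratio lay 45 of the 50 genes (90%), whereas 39.9% of all genes and 45.8% of the genes of highest signal lay as near to their own medians. The SD between members was 0.17, against 0.63 for the genes of highest signal. Over the 34 members with several probe sets, ratios of all kept probe sets within a gene had an SD of 0.25, dim ones included. The brightest and the second brightest probe set of a gene had a median absolute difference of 0.075, a measure that cannot be set against that SD. Some such pairs lay far apart, as in Ndufa10 with 0.43 and -0.81. No replicate array gives the error of a single ratio.

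**Figure D2:**
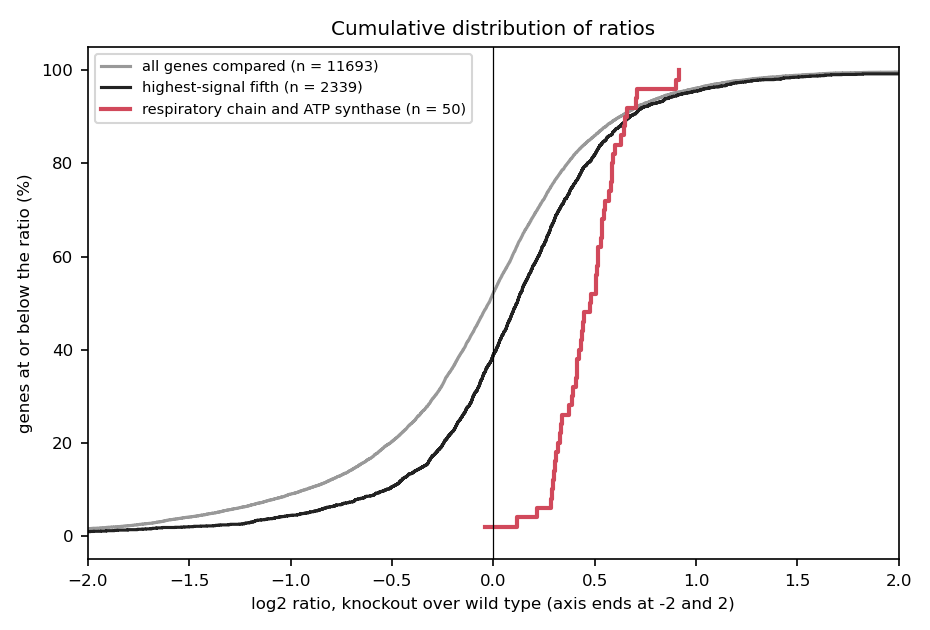
Percentage of genes (y axis) at or below each log2 ratio of knockout over wild type (x axis) for all 11693 genes compared, the 2339 of highest signal and the 50 respiratory chain and ATP synthase genes. The curve of the 50 genes climbs steeply around its median of 0.48, to the right of the medians of -0.02 and 0.12.

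In complex I, the largest complex of the chain, 24 of 25 measured genes were higher on the knockout array, with a median log2 ratio of 0.52. At least 1.5-fold higher were 8 of the 25 (32%), against 11.1% of all genes and 13.8% of the genes of highest signal. The 8 became 2 after quantile normalization, 1 after loess or with hybridisation controls, and 18 with poly-A controls. In that order the shares of all genes were 11.8%, 11.4%, 7.60% and 18.1%. The 6 core subunits, which carry the flavin and most iron-sulfur clusters or help to form the ubiquinone site, lay between 0.53 and 0.71. Ndufs3, a core subunit near the ubiquinone site, had signals of 7548 on the wild-type and 12305 on the knockout array, a log2 ratio of 0.71. Ndufs1, the large iron-sulfur subunit, had 3718 and 5882 (0.66). Ndufv1, which binds the flavin and NADH, had 7225 and 10463 (0.53). The others were Ndufs7 (log2 ratio 0.59), Ndufv2 (0.57) and Ndufs8 (0.54), all carriers of iron-sulfur clusters. The core subunits stayed above 0 under every scaling of the arrays that was tried, with medians from 0.41 to 0.76.

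Accessory subunits of complex I, which surround the core, held both the highest and the lowest ratios of the list. Ndufb10, a membrane-arm subunit that faces the intermembrane space, had 4768 and 9001, a 1.89-fold difference and the highest of the 50. Ndufb9, of the distal membrane arm, had 16504 and 26993 (log2 ratio 0.71), and its next probe set read 0.73. At the other end stood Ndufa2, a matrix-arm subunit with a thioredoxin-like fold, with 9344 and 9080 (-0.04). Ndufa8, a membrane-arm subunit exposed to the intermembrane space, had 8204 and 8906 (0.12). Ndufa1, a small membrane-arm subunit, had 21989.9 and 25489.7 (0.21). These 3 differed little between the arrays: with scaling on the poly-A controls all were above 0, with scaling on the hybridisation controls Ndufa8 and Ndufa2 were below 0, and after loess all 3 were. Each was read by 1 probe set.

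By arm, the 6 measured accessory subunits of the matrix arm had a median of 0.41 and the 12 of the membrane arm 0.51, next to 0.58 for the core. Ndufs4, a matrix-arm subunit whose loss is a known cause of complex I deficiency, had 3179.68 and 4419 (0.47). Of the other matrix-arm subunits, Ndufa5 stood at 0.60, Ndufa9 at 0.52, Ndufa6 at 0.34 and Ndufa7 at 0.30. Of the other membrane-arm subunits, Ndufb8 (0.64) and Ndufb7 (0.63) were past 1.5-fold, and Ndufb5, Ndufb3, Ndufc2, Ndufb2, Ndufa10 and Ndufc1 lay from 0.53 down to 0.37. Ndufa4 was listed with complex I by its name, although its protein was later assigned to complex IV. It had 19136 and 23739 (0.31), which is closer to the complex IV median of 0.36 than to that of complex I. This does not set Ndufa4 apart, since Ndufa6 and Ndufa7 lay there too. Without Ndufa4 the complex I median was 0.53.

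Complex II, the succinate dehydrogenase of both the citric acid cycle and the chain, had the highest median of the 5 complexes, 0.62 over 4 genes. Sdhb, the iron-sulfur subunit, had 11139 on the wild-type array and 20834 on the knockout array, a 1.87-fold difference. Sdha, the flavin subunit, had 10189.7 and 16002 (1.57-fold), and its next brightest probe set read 0.68 on the log2 scale against 0.65. The membrane anchors that bind ubiquinone were less far apart between arrays: Sdhd had 5731 and 8564 (1.49-fold). Sdhc had 3191 and 4278 (1.34-fold), but its other probe set stood at 0.74 on the log2 scale, above the 0.42 of the brightest. All 4 genes were higher on the knockout array, and the catalytic subunits had the larger ratios by their brightest probe sets.

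Complex III had 7 of 7 genes above 0, with a median of 0.51. Its electron-carrying subunits had nearly equal ratios: Cyc1, cytochrome c1, had 9909 and 14904, and Uqcrfs1, the Rieske iron-sulfur protein, had 10319.5 and 15500.2, with log2 ratios of 0.59 for both. The matrix-facing core proteins Uqcrc1 (0.55) and Uqcrc2 (0.48) were next. Of the small subunits, Uqcrb had 41077 and 58321 (0.51). Uqcr10 had 7366 and 9318 (0.34), and Uqcrq had 15078 and 18506 (0.30). A dim probe set of Uqcrq, with signals of 95.8 and 68.1, went the other way.

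Cytochrome c itself, the soluble carrier between complexes III and IV that also takes part in apoptosis, was 1.36-fold higher. Cycs had 22033 on the wild-type array and 30053 on the knockout array, and its 3 other probe sets above the floor read 0.33, 0.34 and 0.50 on the log2 scale. Its ratio was within the range of the complexes on either side.

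Complex IV, cytochrome c oxidase, had the lowest median of the 5, 0.36 over 8 genes, with 8 of 8 above 0 and 0 at 1.5-fold. With 8 genes, 0 is not far from the 13.8% of genes of highest signal that were at least 1.5-fold higher. With poly-A controls 2 of the 8 reached that size. Cox5a, a subunit on the matrix side, had 26968 and 38280.2, the highest ratio at 0.51. Cox5b, which binds zinc, had 22414 and 29694 (0.41). The isoforms used in liver, Cox6a1 with 36256 and 44091 (0.28) and Cox7a2 with 28658 and 35035 (0.29), had the lowest ratios by brightest probe sets. Cox4i1, a subunit that assembles early, had 22364 and 27638 (0.31). Cox6b1 (0.39), Cox8a (0.39) and Cox6c (0.33) lay between, but the other probe set of Cox6c, with 15574.4 and 16559.5, read 0.09. After loess, Cox4i1, Cox6a1 and Cox7a2 were below 0, and the median of complex IV was 0.05.

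In complex V, all 5 genes were higher and 0 reached 1.5-fold, with a median of 0.42. Over so few genes, 0 is likewise not far from the share of 13.8% among genes of highest signal. With poly-A controls 4 of the 5 reached 1.5-fold. Atp5a1, the alpha subunit of the catalytic ring, had 14347 and 20725 (0.53). Atp5b, the catalytic beta subunit, had 23081 and 30684 (0.41). The gamma subunit Atp5c1 of the rotating stalk had 21263 and 28903 (0.44), and the delta subunit Atp5d had 12002 and 14982 (0.32). Atp5o, which joins the ring to the outer stalk, had 7935 and 10581 (0.42). By brightest probe sets the 5 ratios ran from 0.32 to 0.53. The other probe set of Atp5d, with 6421 and 9216, read 0.52. The next brightest ones of Atp5a1 and Atp5o read 0.62 and 0.47, and a dim one of Atp5c1 read 0.89.

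**Figure D3:**
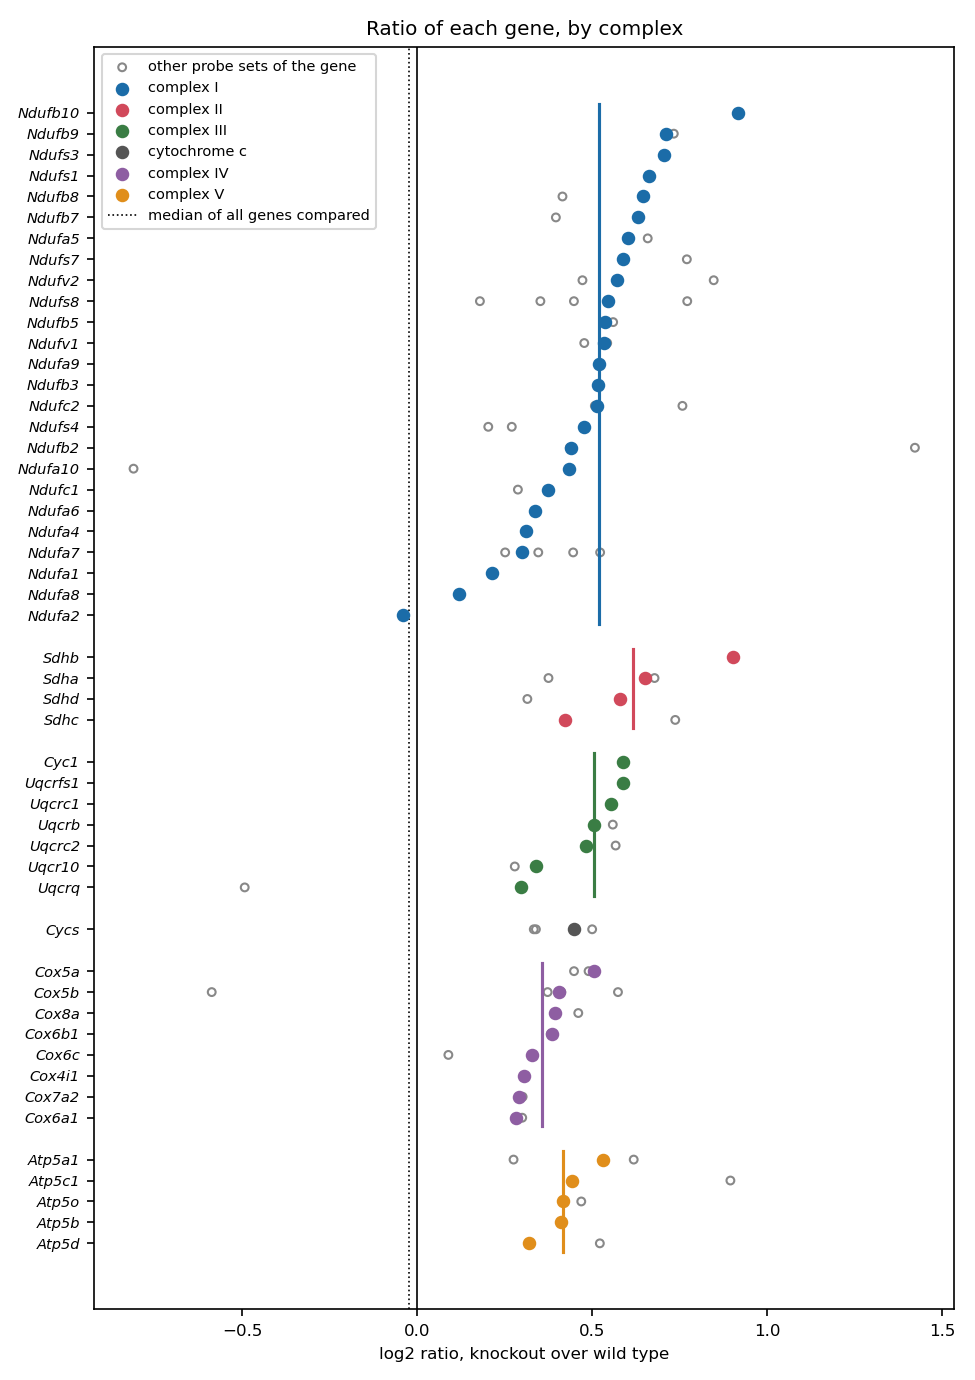
Log2 ratio of knockout over wild type (x axis) for each gene by its brightest probe set (filled, coloured by complex) and its other probe sets above the floor (grey open circles); coloured bars are complex medians and the dotted line is the median of all genes. Medians run from 0.62 for complex II to 0.36 for complex IV, and 1 filled point lies below 0.

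Ratio and signal level were related. Across the 50 genes the log2 ratio was weakly lower at higher mean signal (Pearson r = -0.24, Spearman rho = -0.35; a description across genes of the same arrays, which are not independent). Over the whole array it went the other way. The median was -0.02 for all genes, 0.12 for those of highest signal and 0.18 for those at least as bright as the dimmest member. The part of signal level in the lower ratios of complex IV was not tested. After loess on signal, complex II went from 0.62 to 0.43, complex I from 0.52 to 0.34 and complex III from 0.51 to 0.24. Complex V went from 0.42 to 0.13 and complex IV from 0.36 to 0.05.

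Other probe sets of the same genes gave a second reading within the same arrays. Of 56 other probe sets above the floor on both arrays, 53 had a ratio above 0, with a median of 0.45. All 42 with signals of at least 1000 on both arrays were above 0, from 0.09 to 0.85. The 3 below 0 were dim. That of Ndufa10, with signals of 182 and 104, read -0.81, against 0.43 for the brightest (10827 and 14617). That of Uqcrq read -0.49. That of Cox5b, with signals of 99.3 and 66.1, read -0.59, while its 3 bright ones besides the brightest read 0.37, 0.41 and 0.57.

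Subunits outside the list followed the same direction, with exceptions. Of 11 further complex I genes, 8 were measured and all 8 were above 0, from 0.27 for Ndufa13 to 0.50 for Ndufa12, with a median of 0.38. Of 16 further genes of complexes III, IV and V and their regulators, 14 were above 0 (median 0.39), 4 were at least 1.5-fold higher and 1 was at least 1.5-fold lower, against 11.1% and 17.4% of all genes. The 4 became 1 after quantile normalization, loess or scaling on hybridisation controls, and 7 with poly-A controls. The lower one was Atpif1, the inhibitor that blocks ATP hydrolysis by complex V. Its signal was 4370 on the wild-type array and 1676 on the knockout array, 2.61-fold lower, by 1 probe set, and it was lower under every scaling tried (log2 ratios from -1.52 to -1.20). Cox7a2l, a factor of supercomplex assembly, had 5178 and 5093 (-0.02, or 0.16 with poly-A controls). Cox7c, a complex IV subunit, had the highest ratio, 2.83-fold, from 1 dim probe set with signals of 62.8 and 178. Isoforms restricted to other tissues were dim: 4 of 8 passed the filter, with a median of -0.05, and Ndufa4l2, a hypoxia-responsive relative of Ndufa4, was at least 3.38-fold lower, with 157 on the wild-type array and a knockout signal below the floor.

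Subunits encoded in the mitochondrial genome were represented by 1 of 13 genes. The ND5 probe set had 43568 and 51894, a log2 ratio of 0.25, which turned to -0.04 after quantile normalization and -0.14 after loess.

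Genes that build the chain had more scattered ratios than the chain itself, with an SD of 0.33 for assembly factors and 0.35 for regulators, against 0.17 for the members. Many were also dimmer, such as Ndufaf5 with 242 and 290, whereas the lowest member signal was 3179.68. The part of signal level in this scatter was not tested. Of 42 measured assembly factors, 33 were above 0, 5 were at least 1.5-fold higher and 0 at least 1.5-fold lower, with a median of 0.26. Among all genes 11.1% were at least that much higher, so this count was near the background, and it went from 3 with hybridisation controls to 10 with poly-A controls. Ndufaf6, a complex I assembly factor, was highest (894 and 1958, log2 ratio 1.13), and Cox19, which takes part in copper handling for complex IV, was lowest (3244 and 2237, -0.54). Of 16 regulators of mitochondrial gene expression and DNA, 13 were above 0 and 2 were at least 1.5-fold higher, with a median of 0.34. The 2 were likewise near the background of 11.1%, and became 5 after quantile normalization, 4 after loess, 1 with hybridisation controls and 8 with poly-A controls. Polg2, the accessory subunit of the mitochondrial DNA polymerase, was highest (431 and 956, 1.15), and Gabpb1, a GABP subunit, was lowest (114 and 90.6, -0.33). Ppargc1a, the coactivator PGC-1 alpha, had 519 and 783 (0.59), and its 5 kept probe sets ranged from 0.59 to 1.48.

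Of 13 citric acid cycle enzymes, which supply NADH and succinate, 11 were above 0 and 3 were at least 1.5-fold higher, with a median of 0.40. The background was 11.1% as deposited and from 7.60% to 18.1% under the other scalings. The 3 became 1 after quantile normalization or with hybridisation controls, 0 after loess and 6 with poly-A controls. Fh1, fumarate hydratase, acts just after complex II and was highest (8547 and 14264, 0.74). Cs, citrate synthase, was lower, with 3654 and 2883 (-0.34), and its 3 probe sets went from -0.74 to -0.34. Each of these list medians stayed above 0 under the 6 scalings compared, the assembly factors between 0.12 and 0.44.

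**Figure D4:**
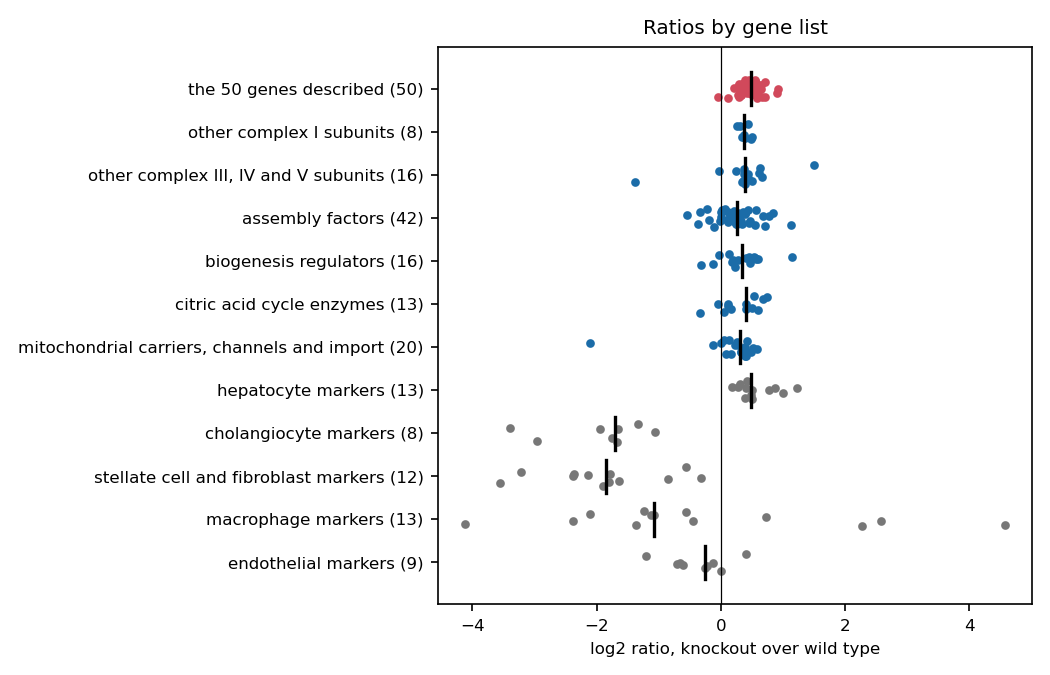
Log2 ratio of knockout over wild type for each gene (points) and median (black bar) of the 50 genes described, further mitochondrial lists and cell type markers, with the number of genes in parentheses. Medians of the mitochondrial lists drawn lie between 0.26 and 0.48, and hepatocyte markers at 0.49, while markers of bile duct and matrix-producing cells lie far below 0.

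Markers of cell types also differed between the arrays. Hepatocyte markers went in the direction of the 50 genes. The medians of cholangiocyte, stellate cell and fibroblast, macrophage and endothelial markers went in the other direction. In bulk tissue, fewer cells of a type and less RNA per cell cannot be told apart. All 13 measured hepatocyte markers were above 0, with a median of 0.49, close to that of the 50 genes, and their summed signal was 408495 on the wild-type and 578500 on the knockout array. After loess, 9 of the 13 were above 0 and their median was 0.12, against 0.25 for the 50 genes. Cholangiocyte markers were lower in 8 of 8 cases (median -1.71, summed signal 7828 and 1475), and stellate cell and fibroblast markers in 12 of 12 (median -1.85, 46704 and 19808). Macrophage markers were split, with 9 of 13 lower and 4 higher (median -1.08, summed signal 54708.5 and 30788). The 4 higher ones are known from resident Kupffer cells: Clec4f was 1.66-fold higher, and Timd4, Marco and Cd163, below the floor on the wild-type array, were higher by at least 4.86-fold, 6.01-fold and 23.9-fold. The lowest ratios were those of Gpnmb (-4.12), Trem2 (-2.38) and Cd68 (-2.11). Lower as well were C1qb (-1.37), Lyz2 (-1.23), C1qa (-1.13), Ctss (-1.08), Adgre1 (-0.56) and Csf1r (-0.44). A split between resident and other macrophages does not follow from these values. These genes were named after their values were seen. Endothelial markers were lower in 8 of 9 cases (median -0.25, 8612 and 7838; with poly-A controls 3 of 9 were above 0). Markers of T, NK and B cells were above 0 in 4 of 7 cases, with a median of 0.18, and 2 of 6 muscle and brown fat markers passed the filter. Of the markers that passed the filter, no others lay below the floor. The part of cell composition in the higher ratios of the respiratory chain genes was not tested.

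The trimmed mean signal was 500.004 on both arrays. Kdm3a had 719.9 and 61.6, 11.7-fold lower on the knockout array, though whether its probe set lies in the deleted part is not known here. The 3′ to 5′ signal ratio was 1.85 and 1.99 for Actb and 0.70 and 0.65 for Gapdh. The 3 control probe sets for 18S ribosomal RNA were 1.74-fold to 1.89-fold higher on the knockout array; their part in the ratios was not tested. Scaling on control RNAs moved the median of all genes from -0.02 to -0.16 (hybridisation controls) or 0.16 (poly-A controls), and the 50 genes were then at 0.35 and 0.66.

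**Figure D5:**
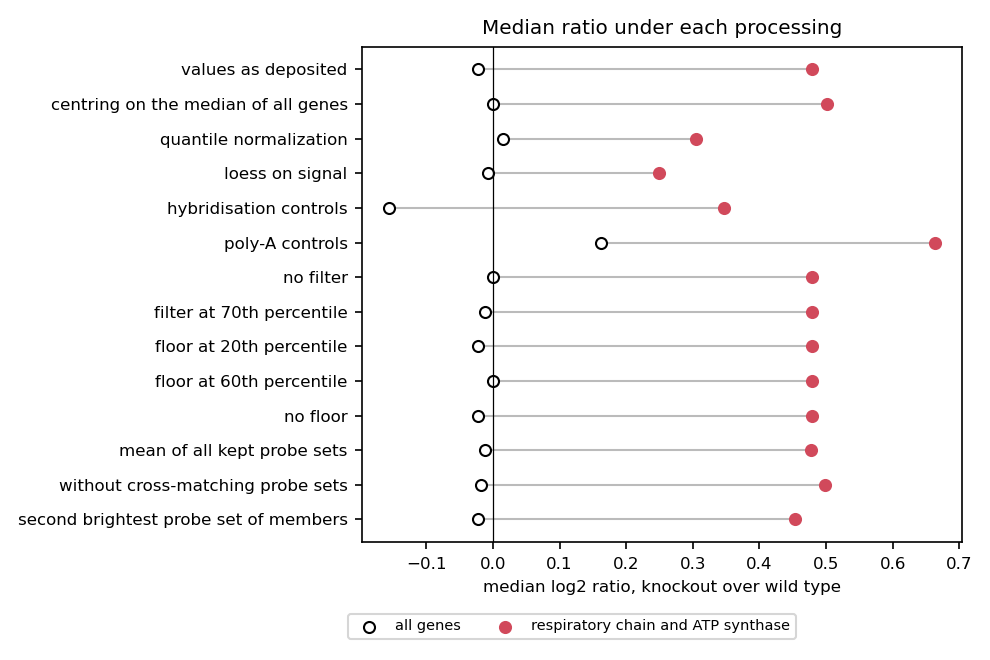
Median log2 ratio of all genes (open) and of the respiratory chain and ATP synthase genes (red) under each way of processing the arrays. The red point lies to the right of the open point in every row, by 0.26 after loess and by 0.52 without cross-matching probe sets, the smallest and largest gaps.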

How the data were processed

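Total RNA of liver was hybridised to 1 Affymetrix array per genotype, per the labels. The deposited values are linear intensity signals per probe set, made with MAS5 per the submitters' processing notes; the sources used here give neither its settings nor detection calls. Of 45101 probe sets, 64 were controls, 34945 named 1 gene and 932 several. Signals below 46.5, the 40th percentile of both arrays pooled, were raised to that floor. Probe sets with a mean signal of at least 73.7, the median, were kept (19800), and each of 11693 genes took its brightest one. Knockout signals were divided by wild-type signals and put on the log2 scale, and sizes were counted at 1.5-fold and 2-fold. Analysis used Python 3.11.15 with pandas 2.3.3 and statsmodels 0.14.6, and was tested on simulated data.

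The members, gene lists, thresholds and motifs were chosen with earlier results of these data known. Values with both signals are given for the 3 highest and 3 lowest of complex I, the 2 highest and lowest of complexes III, IV and V, complex II, Cycs and members whose probe sets went both ways; further names and Sdhb's promoter were added after values were seen. Alternatives were other scalings (loess span 0.3), floors, filters and probe-set choices. Arrays being single, no interval or test could be given.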

Additional observations from a re-analysis of the deposited data

How the results depend on the processing

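With 1 array per genotype no replicate could be left out. No paired analysis was possible because each genotype has a single array. A median was counted as moved if it shifted by more than the within-gene SD of probe-set ratios (0.45 on the log2 scale, over 4958 genes) divided by the square root of the number of members. Of 145 comparisons with an alternative, 118 did not move and 0 changed direction. The 118 do not measure robustness, because many could not move. Changes of floor or filter could not reach the members, whose lowest signal was 3179.68. Scaling by a constant could not change the member median relative to all genes. The 145 also include counts, which the rule for medians does not cover. Of the single genes, Cox5b, Uqcrq and Ndufa10 turned below 0 where dim probe sets were used, and Ndufa1, Ndufa8, Cox4i1, Cox6a1 and Cox7a2 after loess. Ndufa1 was also just below 0 after quantile normalization (-0.0031) and Ndufa8 with hybridisation controls (-0.014), while Ndufa2 was above 0 with poly-A controls (0.14). Changes of floor or filter moved no median or count of the members. The median of the members was 0.30 after quantile normalization, 0.25 after loess, 0.35 with hybridisation controls and 0.66 with poly-A controls; above the median of all genes it was 0.29 after quantile normalization and 0.26 after loess, and 0.50 as deposited. For complex I these 4 scalings gave 0.39, 0.34, 0.39 and 0.70. Complex III was at 0.29 (quantile), 0.24 (loess) and 0.69 (poly-A), complex IV at 0.14, 0.046 and 0.54, and complex V at 0.13 after loess. The 12 genes at least 1.5-fold higher became 3 (quantile), 2 (loess), 2 (hybridisation controls) and 34 (poly-A controls, with 2 at 2-fold); shares of all genes under these were 11.8%, 11.4%, 7.60% and 18.1%. Of the calls at 1.5-fold among all genes, 38.9% were higher as deposited, 25.6% with hybridisation controls and 58.7% with poly-A controls. Without cross-matching probe sets 38 members were left, 1 at 2-fold higher (Ndufb2) and 1 at least 1.5-fold lower (Cox5b), both then read by dim probe sets. With the second brightest probe set, chosen after seeing the data and held by 34 members, 32 were above 0, 7 at least 1.5-fold higher and 1 at least 1.5-fold lower (Ndufa10). The cause of the shifts with scaling was not tested. The 50 members were far above the floor, so signal over background did not limit them; the single array per genotype did.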

Other observations

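Carriers, channels, chaperones and import proteins of mitochondria were also mostly higher on the knockout array: 18 of 20 measured genes had a log2 ratio above 0 (14 after loess or with hybridisation controls), with a median of 0.30. The chaperone Hspd1 was highest, with 15107 on the wild-type and 22626 on the knockout array (0.58). Slc25a4, an ADP/ATP carrier that is the main form in heart and muscle, was 1 of the 2 below 0: its signal was 2353 and 544, 4.33-fold lower, and its 3 probe sets went from -2.33 to -1.70. The other was Immt, which organises the cristae, with 2314 and 2117 (-0.13) and 3 probe sets from -0.31 to 0.11. Slc25a5, another ADP/ATP carrier, had 26277 and 32945.0 (0.33) by its brightest probe set, but its 8 probe sets went from -0.27 to 0.33.

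Cs and Mdh2, which catalyse neighbouring steps of the citric acid cycle, were below 0 (-0.34 and -0.05, Mdh2 above 0 with poly-A controls) while Fh1, Sdha and Sdhb were at least 1.5-fold higher. After loess Fh1 (0.53) and Sdha (0.42) were short of 1.5-fold, as was Sdha after quantile normalization (0.47) and with hybridisation controls (0.52), and Sdhb (0.65) was not.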
